A study of Homo sapiens with 4 samples.

Results

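Enzymes that add or remove acetyl and methyl groups on histones, bromodomain proteins that bind acetylated histones, and CHD remodellers that move nucleosomes form the set of genes described here. They were chosen by gene name: KMT, KDM, SETD, HDAC, KAT, CHD or BRD followed by a digit, together with EP300, CREBBP, EZH1, EZH2, EHMT1, EHMT2, NSD1, NSD2, NSD3, PRMT1 and PRMT5. Of the 6112 genes in the deposited tables, 53 met this rule. They held 95 of 12076 listed cytidines after TGF-β1 (0.787%) and 108 of 8298 in control (1.30%), with a position counted once for each gene it lies in. All 53 names matched a protein-coding gene of RefSeq. EZH2 and NSD1 had no line to analyse here.

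The cells were LX-2, an established line of human hepatic stellate cells, labelled as wild type. For 2 libraries the cells received human recombinant TGF-β1 at 5 ng/ml for 24 h, and 2 libraries came from untreated cells (control), with the members of each pair labelled as biological replicates. All 4 were made from polyadenylated RNA for NaBH4 sequencing, in which borohydride reduces N4-acetylcytidine (ac4C) so that it can be misread in the reads. No library is labelled as made without borohydride, so the listed cytidines are mismatches, and which of them are ac4C was not examined.

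The deposited data were 1 table per group, with 1 mismatch difference and 1 p-value of the authors for each listed cytidine. The mismatch difference is a share of mismatched reads, printed here in percent, and the terms of the subtraction are not stated. No value is below 1.00% and no p-value is above 0.04999. The tables hold no reads, depths, transcript levels or values per library. No value therefore has a replicate error, no comparison of the groups has a replicate check, and no test between the groups was made. Intervals for ratios and shares are exact binomial 95% intervals that cover counting error only and treat positions of 1 gene as independent. A cytidine that is absent from a table can be unmodified, uncovered or below the authors' thresholds. More reads of a transcript and more mismatches per transcript cannot be told apart by counting listed cytidines, nor can fewer expressing cells and less RNA per cell.

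Coordinates are those of hg38, counted from 1. Where a listed cytidine of any gene fell in a RefSeq promoter window of GRCh38.p14, the base read at that coordinate on the listed strand was C at 316 of 316 positions after TGF-β1 and at 215 of 215 in control. None of the 203 listings of the histone-modifier set lay in such a window, so no sequence around them is shown. Of the stellate and myofibroblast markers 5 of 9 had listed positions (COL1A1, ACTA2, TAGLN, PDGFRB and VIM). None of the 4 hepatocyte, 3 endothelial or 2 cholangiocyte markers did, and of 3 leukocyte markers only CD68 was listed. A listed position is not an expression level.

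Histone modification works through writers, erasers and readers. Methyltransferases and acetyltransferases write marks on histone tails, demethylases and deacetylases remove them, and proteins with bromodomains, chromodomains or related folds read them. In stellate cells, deacetylases and EZH2 have been studied as regulators of the change to the collagen-producing myofibroblast.

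The set carried fewer listed cytidines after TGF-β1, whereas the tables as a whole carried more. The 95 positions after TGF-β1 and 108 in control gave a ratio of 0.880 (0.661 to 1.17), against 1.46 (1.41 to 1.497) over all genes. Fewer positions after TGF-β1 were listed in 30 of the 53 genes (56.6%), against 35.3% of all genes, and more in 19 (35.8%), against 51.2%. The other 4 genes had equal numbers. Genes absent from the TGF-β1 table numbered 22 (41.5% of the set), against 27.3% of all genes. Genes absent from the control table numbered 9 (17.0%), against 28.3%.

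Over the set as a whole, the shortfall lay among cytidines with a low mismatch difference. Below 5%, 41 positions were listed after TGF-β1 and 74 in control, a ratio of 0.554 (0.369 to 0.822), against 1.27 over all genes. At 5% or more, 54 positions were listed after TGF-β1 and 34 in control, and the ratio of 1.59 (1.02 to 2.52) turned to the other side of 1, against 1.75 over all genes. At 10% or more there were 16 positions after TGF-β1 (16.8% of the set's positions there, against 18.4% of all positions) and 7 in control (6.48%, against 12.3%). The median mismatch difference over all listings of the set was 5.74% after TGF-β1 and 3.70% in control, against 4.68% and 4.04% over all genes. The direction also turned when positions were limited to an authors' p-value below 0.001, with 69 after TGF-β1 and 58 in control (ratio 1.19, against 1.77 over all genes). The authors' p-values moved with the groups: their median in the set was 2.54e-05 after TGF-β1 and 0.000678 in control, and over all genes 1.06e-05 and 0.000355. The part of this difference in the counts was not tested.

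**Figure D1:**
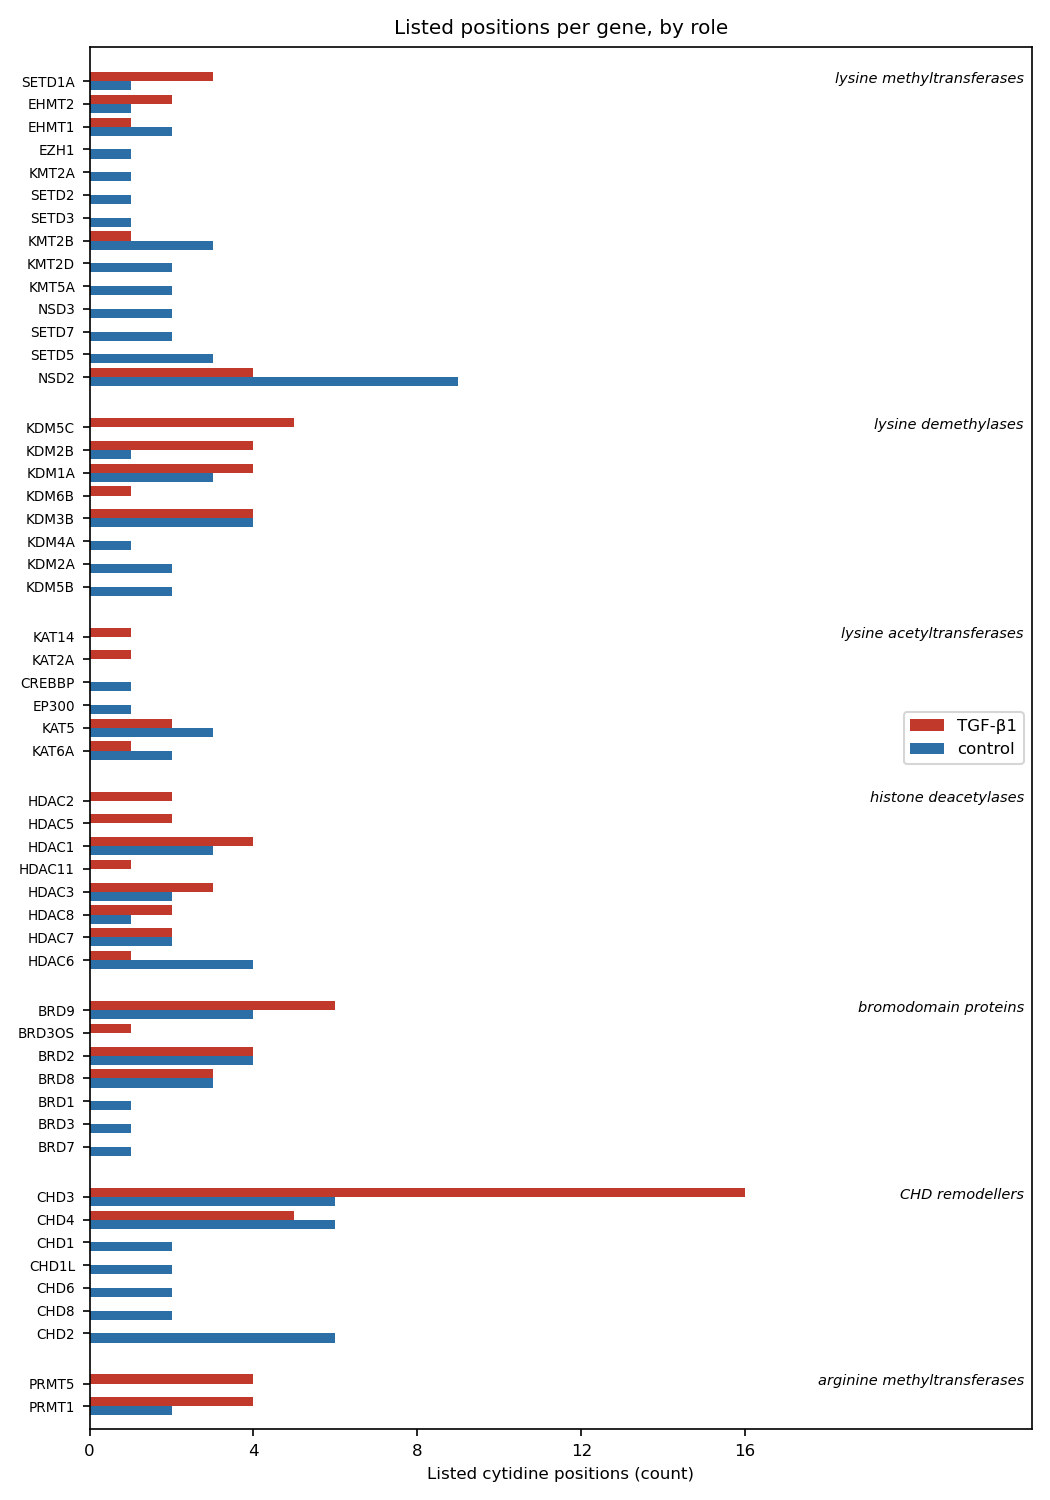
Number of listed cytidine positions (x axis) per gene, grouped by role, for the genes reported here, with TGF-β1 as the red upper bar and control as the blue lower bar. CHD3 had most positions after TGF-β1 (16) and NSD2 most in control (9), and most lysine methyltransferases have a control bar only.

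Lysine methyltransferases had the lowest ratio of the 7 role groups. Their 14 genes held 11 positions after TGF-β1 and 31 in control, a ratio of 0.355 (0.161 to 0.725), against 1.46 over all genes. Of the 14, 12 had fewer positions after TGF-β1 (85.7%), against 35.3% of all genes. Unlike that of the whole set, the ratio of this group stayed below 1 at 5% or more. It was 0.364 there (0.0844 to 1.23), against 1.75 over all genes. NSD2, which dimethylates histone H3 in gene bodies and is overexpressed by translocation in multiple myeloma, had 4 positions after TGF-β1 and 9 in control. The 4 after TGF-β1 were all in coding sequence and ran from 1.50% to 3.73%. The 9 in control ran from 1.18% to 12.3%, and the highest was in a 3'UTR at chromosome 4 position 1980295. Of all 6112 genes, 42 had a deficit of 5 positions or more, the size seen in NSD2. The single NSD2 cytidine listed in both tables, chromosome 4 position 1959731 on the plus strand, had 3.11% after TGF-β1 and 1.55% in control.

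KMT2B, a methyltransferase of promoter-associated histone H3, had 1 position after TGF-β1 and 3 in control. Its coding position 35738109 on chromosome 19 was in both tables, with 11.8% after TGF-β1 and 9.12% in control. SETD1A, the catalytic subunit of another promoter-directed methyltransferase complex, went the other way with 3 positions after TGF-β1 and 1 in control. Its shared coding cytidine at chromosome 16 position 30966200 had 9.44% after TGF-β1 and 2.49% in control, a ratio of 3.78. The authors' p-value at that position was exactly 0 after TGF-β1. EHMT2, a repressive methyltransferase of histone H3, was the other gene of this group with more, with 2 positions after TGF-β1 and 1 in control. Its partner EHMT1 had 1 and 2.

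The remaining 9 methyltransferase genes were listed in control only (64.3% of the 14), against 27.3% of all genes. They had few listings each, and a deficit of 2 positions or more was present in 688 of all 6112 genes. SETD5 had 3 positions in control, from 1.86% to 12.3%, and the authors' p-value of the highest was 0.0448, near the largest listed. KMT2D, KMT5A, NSD3 and SETD7 had 2 each, and KMT2A, EZH1, SETD2 and SETD3 had 1 each. SETD2, which trimethylates histone H3 behind elongating polymerase, had 9.97%. SETD3 is better known as the histidine methyltransferase of actin, and EZH1 is a catalytic subunit of the Polycomb repressive complex. The single KMT2A position and 1 of those in KMT2D are also annotated to a second, unnamed gene.

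The 8 lysine demethylase genes held 18 positions after TGF-β1 and 13 in control, a ratio of 1.38 (0.641 to 3.07), near the 1.46 of all genes. More positions were listed in 4 genes (50%) and fewer in 3 (37.5%), against 51.2% and 35.3% of all genes. KDM2B, a demethylase that binds unmethylated CpG and brings a Polycomb complex to CpG islands, had 4 positions after TGF-β1 and 1 in control. Of the 4, 3 lay within 10 bases of each other on the minus strand of chromosome 12, in coding sequence. They had 23.1% at position 121453162, 23.9% at 121453165 and 23.8% at 121453171, and were listed after TGF-β1 only. They are the highest values after TGF-β1 of any gene of the set other than BRD3OS. Because they lie so close, the same reads can cover all of them, and they may not be independent. The KDM2B cytidine at 121444167 was in both tables, with 5.18% after TGF-β1 and 3.04% in control.

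KDM5C, an X-linked demethylase of promoter histone H3, had 5 positions after TGF-β1 and 0 in control. They ran from 1.91% to 10.7%, and 4 of them were coding. KDM1A, the flavin-dependent demethylase of the CoREST complex, had 4 positions after TGF-β1 and 3 in control. Its shared cytidine at chromosome 1 position 23030546 had 7.96% after TGF-β1 and 3.56% in control. A cytidine downstream at 23030582 had 16.8% after TGF-β1 and was not listed in control. KDM3B had 4 positions in each table and none in common. KDM6B had 1 position after TGF-β1 and 0 in control, while KDM2A and KDM5B had 2 and KDM4A had 1 in control only.

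Histone deacetylases had 17 positions after TGF-β1 and 12 in control over 8 genes, a ratio of 1.42 (0.638 to 3.25), near the 1.46 of all genes. Of the 8, 6 had more (75%) and 1 fewer (12.5%), against 51.2% and 35.3% of all genes. HDAC1, a catalytic subunit of the NuRD, Sin3 and CoREST corepressors, had 4 positions after TGF-β1 and 3 in control, with 2 cytidines in common. At chromosome 1 position 32330894 the values were 4.48% after TGF-β1 and 3.26% in control, and at 32331769 they were 4.56% and 4.998%. Its paralogue HDAC2 had 2 positions after TGF-β1, at 1.90% and 6.48%, and 0 in control. HDAC3, a further class I deacetylase, had 3 and 2, and HDAC7 had 2 and 2. HDAC5 had 2 positions after TGF-β1 and 0 in control, HDAC8 2 and 1, and HDAC11 1 and 0. HDAC6, a mostly cytoplasmic deacetylase of tubulin, was the exception with 1 position after TGF-β1 and 4 in control. The HDAC6 value after TGF-β1 was 5.20%, and the control values ran from 2.41% to 10.9%. Both coding HDAC8 positions are also annotated to an unnamed gene.

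Lysine acetyltransferases had few positions. The 6 genes held 5 after TGF-β1 and 7 in control. Of them, 2 had more (33.3%) and 4 fewer (66.7%), against 51.2% and 35.3% of all genes. KAT6A, an acetyltransferase of histone H3 that is rearranged in leukaemia, had 1 position after TGF-β1 and 2 in control. Its coding cytidine at chromosome 8 position 41934327 had 16.1% after TGF-β1 and 4.69% in control, a difference of 11.4 points, which was the largest at any shared position of the set. KAT5, the catalytic subunit of the TIP60 complex, had 2 positions after TGF-β1 and 3 in control. All 3 control positions lay in the 5'UTR within 10 bases. The one in both tables, chromosome 11 position 65713804, had 6.05% after TGF-β1 and 5.16% in control. The coactivators EP300 and CREBBP each had 1 position in control, at 6.95% and 3.02%, and 0 after TGF-β1. KAT14 and KAT2A each had 1 position after TGF-β1 only.

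Genes named for bromodomains had 15 positions after TGF-β1 and 17 in control, a ratio of 0.882 (0.410 to 1.88), against 1.46 over all genes. They had no cytidine in common, where 16.9% of all positions after TGF-β1 and 24.6% in control were shared. The intervals of the group's shared part reached 21.8% after TGF-β1 and 19.5% in control. BRD9, a subunit of a SWI/SNF complex, had 6 positions after TGF-β1, from 1.77% to 6.84%, and 4 in control, from 1.16% to 2.81%. BRD2, which binds acetylated histone H4, had 4 positions in each table. The BRD2 values were 1.84% to 13.9% after TGF-β1 and 1.61% to 7.36% in control. BRD8, a subunit of the TIP60 complex, had 3 in each, from 3.03% to 9.82% after TGF-β1 and from 2.39% to 2.61% in control. BRD1, BRD3 and BRD7 had 1 position each in control only. The highest value of the whole set, 28.2% after TGF-β1, lay in the 5'UTR of BRD3OS at chromosome 9 position 134026737 and has an authors' p-value of exactly 0. BRD3OS is named for its place opposite BRD3 and met the name rule without being a bromodomain gene. Without it the ratio of the set was 0.870.

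Of the CHD remodellers, only CHD3 and CHD4 had positions after TGF-β1. The 7 genes held 21 positions after TGF-β1 and 26 in control, a ratio of 0.808 (0.432 to 1.49), against 1.46 over all genes. Without CHD3, the gene with most listings, the CHD genes held 5 and 20, a ratio of 0.250, against 1.45 over all genes. All 5 after TGF-β1 lay in CHD4. The CHD genes of 50 kb or more, which CHD3 and CHD4 are not among, had a ratio of 0 (0 to 0.301), against 0.928. CHD3, an ATPase of the NuRD complex, had 16 positions after TGF-β1 and 6 in control. An excess of 10 positions or more was present in 37 of all 6112 genes. The CHD3 values ran from 1.82% to 14.9% after TGF-β1 and from 1.17% to 8.31% in control. Of its 16 positions after TGF-β1, 2 were in the 5'UTR and the others in coding sequence. The 3 shared CHD3 cytidines on chromosome 17 had 9.22% after TGF-β1 and 8.31% in control at 7894458, 6.24% and 3.67% at 7895462, and 2.64% and 2.55% at 7897219. All were higher after TGF-β1, the last by 0.0956 points.

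CHD4, the main NuRD ATPase in many tissues, had 5 positions after TGF-β1 and 6 in control, with 3 in common. Its shared cytidines on chromosome 12 had 3.35% after TGF-β1 and 2.77% in control at 6581091, 1.94% and 1.06% at 6597969, and 9.24% and 4.07% at 6600331. The neighbouring base 6600330 was listed in control only, at 9.26%. Every CHD4 position is also annotated to an unnamed gene, so its reads cannot be assigned to CHD4 alone. CHD2 had 0 positions after TGF-β1 and 6 in control, from 3.10% to 23.7%. A deficit of 6 or more was present in 25 of all 6112 genes. The highest CHD2 value was in coding sequence at chromosome 15 position 93024391. CHD8, a remodeller with recurrent mutations in autism, had 0 positions after TGF-β1 and 2 in control, at 6.75% and 27.9%. The second, at chromosome 14 position 21429247, is the highest control value of the set. CHD1, CHD6 and CHD1L, a remodeller with a macrodomain, had 2 positions each in control only.

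Both arginine methyltransferases of the rule had more positions after TGF-β1, as did 51.2% of all genes. PRMT1, the main asymmetric dimethylating enzyme, had 4 after TGF-β1 and 2 in control, and both control cytidines recurred. At chromosome 19 position 49680585 the values were 3.27% after TGF-β1 and 3.43% in control, and at 49683994 they were 6.65% and 4.59%. PRMT5, the main symmetric enzyme, had 4 positions after TGF-β1 and 0 in control. The PRMT5 values ran from 2.14% to 19.1%, the highest in a 3'UTR at chromosome 14 position 22920806.

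**Figure D2:**
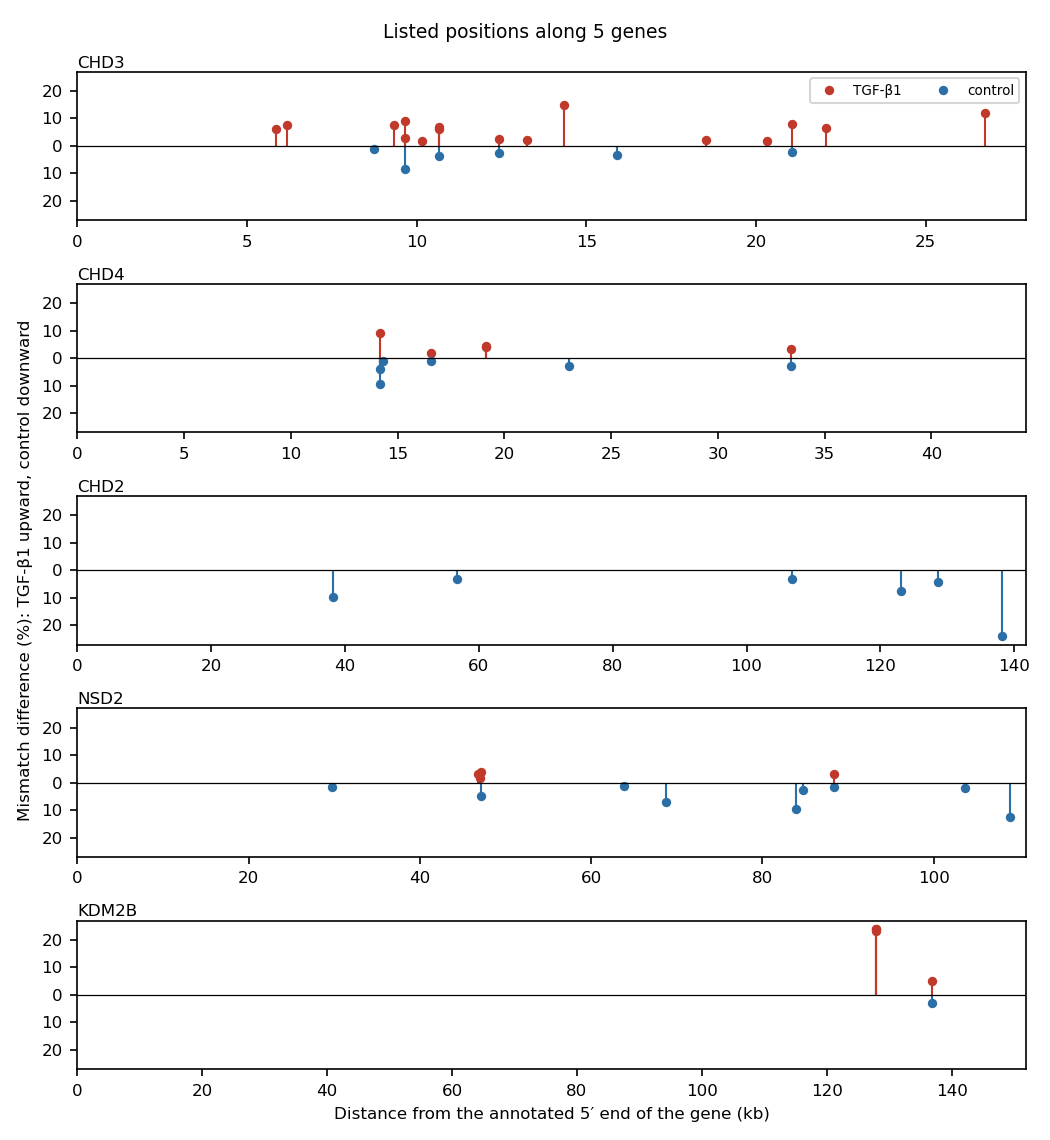
Mismatch difference (percent) of each listed position against its distance from the annotated 5′ end in CHD3, CHD4, CHD2, NSD2 and KDM2B, with TGF-β1 drawn upward in red and control downward in blue. CHD3 has 16 red and 6 blue points, CHD2 has blue points only, and the KDM2B positions of 23.1% to 23.9% stand at 1 place.

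**Figure D3:**
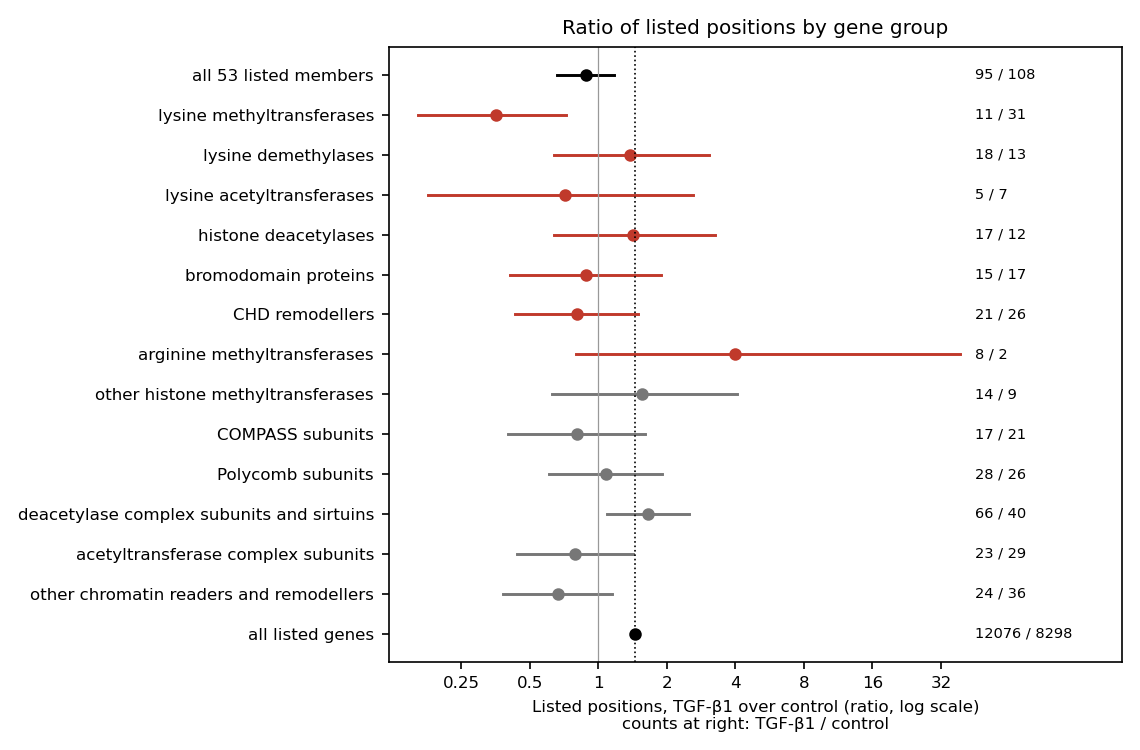
Ratio of listed positions after TGF-β1 over control on a log axis, with exact binomial 95% intervals. Rows are the whole set, its 7 role groups (red), 6 lists of related genes outside the name rule (grey) and all listed genes. The dotted line marks 1.46, the ratio of all genes, and the interval of the lysine methyltransferases (0.161 to 0.725) lies below it.

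Cytidines in both tables mostly had the higher value after TGF-β1, at about the rate of all genes. The set had 17 of them in 11 genes. They were 17.9% of its positions after TGF-β1 (10.8 to 27.1) and 15.7% of those in control (9.45 to 24.0), against 16.9% and 24.6% over all genes. Of the 17, 15 were higher after TGF-β1 (88.2%, 63.6 to 98.5), against 78.1% of all shared positions. The lower ones were HDAC1 position 32331769 and PRMT1 position 49680585, with differences of -0.437 and -0.167 points (TGF-β1 minus control). The median over the 17 was 6.05% after TGF-β1 and 3.56% in control. The median difference was 1.56 points (order-statistic interval 0.883 to 2.71), against 1.70 over all shared positions, and the median log2 ratio was 0.54, against 0.58. A ratio of 2 or more was seen at 5 of 17 (29.4%), against 27.4% of all. These lay in SETD1A, KAT6A, CHD4, KDM1A and NSD2.

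**Figure D4:**
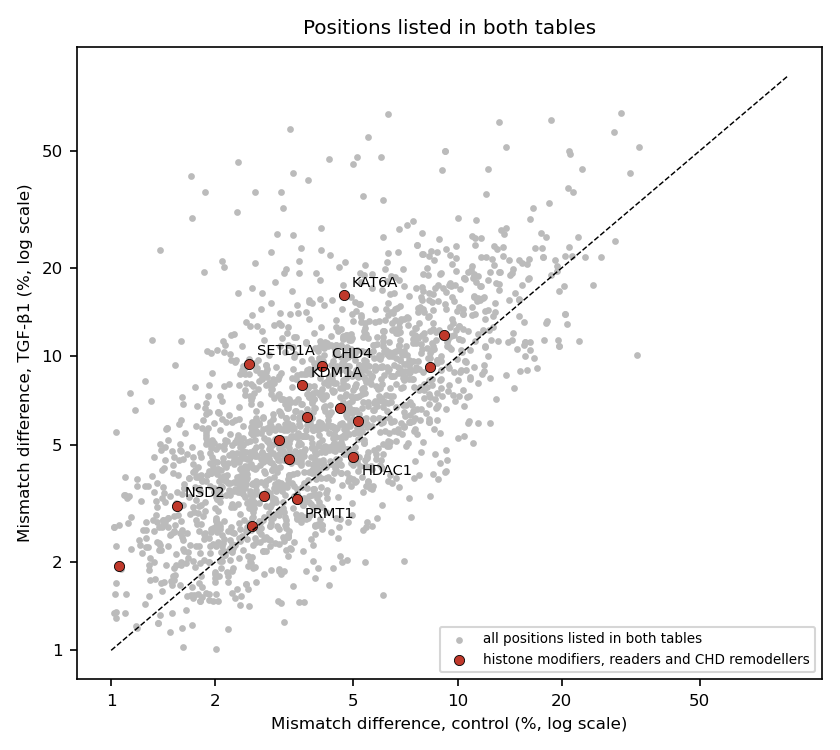
Mismatch difference after TGF-β1 (y axis) against control (x axis), both in percent on log axes, at positions listed in both tables; grey points are all genes and red points the 17 positions of the set. The dashed line marks equal values, and 15 red points lie above it with only HDAC1 and PRMT1 points below.

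The fewer positions went together with gene span, the genomic length from start to end of the annotated gene. The set had a median span of 53.1 kb, against 29.2 kb over all genes. Its 19 genes with more positions after TGF-β1 had a median of 28.0 kb and its 30 with fewer 82.4 kb. All genes showed the same order, with 21.1 kb and 48.6 kb. In genes under 20 kb the set had 21 positions after TGF-β1 and 12 in control, a ratio of 1.75 (0.822 to 3.90), against 1.995 over all genes. From 20 to 50 kb the ratio was 1.33 (0.848 to 2.11), against 1.63. From 50 to 100 kb there were 14 and 29 positions, a ratio of 0.483 (0.236 to 0.943), against 1.15. At 100 kb or more there were 12 and 31, a ratio of 0.387 (0.181 to 0.775), against 0.740. In the 29 genes of 50 kb or more, 8 positions below 5% were listed after TGF-β1 and 40 in control, a ratio of 0.200 (0.0809 to 0.433), against 0.771 over all genes of that span. At 5% or more these genes had 18 and 20 positions. KDM2B (152 kb) and HDAC8 (244 kb) were the genes of 100 kb or more with more positions after TGF-β1. The part of span, or of any property that goes with it, in the counts was not tested.

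**Figure D5:**
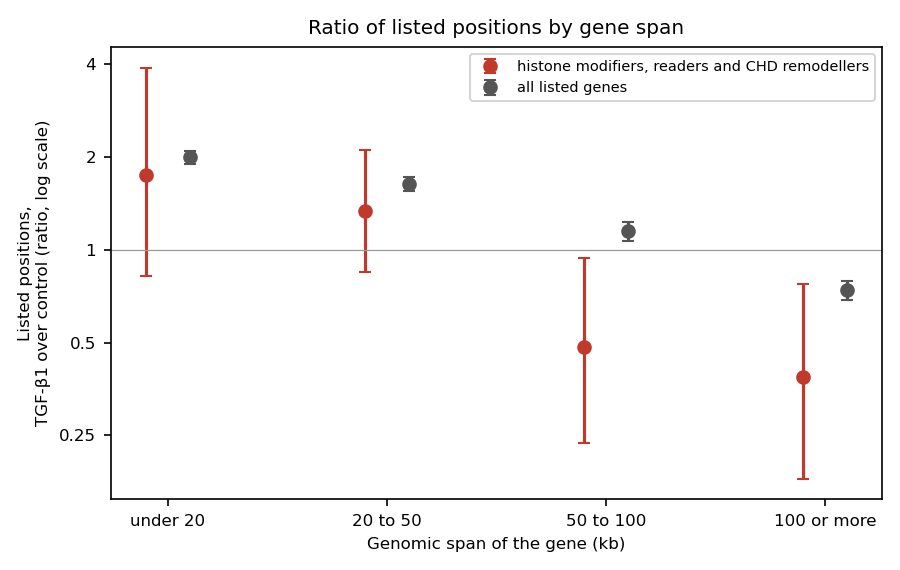
Ratio of listed positions after TGF-β1 over control (log axis) in 4 classes of gene span, with exact binomial 95% intervals, for the set (red) and all listed genes (dark grey). Both series descend with span, to 0.387 in the set and 0.740 over all genes at 100 kb or more.

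The positions of the set lay in coding sequence more often than those of all genes. Coding sequence held 84 of 95 positions after TGF-β1 (88.4%) and 93 of 108 in control (86.1%), against 76.4% and 74.7% of all positions. The 3'UTR held 3 after TGF-β1 (3.16%) and 8 in control (7.41%), against 12.0% and 12.7%, and the 5'UTR held 8 and 6. The remaining control position was in a noncoding exon of HDAC1. With coding positions alone the ratio was 0.903, against 1.49 over all genes. Positions within 10 bases of another of the same gene and table numbered 17 after TGF-β1 (17.9%, 10.8 to 27.1) and 11 in control (10.2%, 5.20 to 17.5), against 14.1% and 10.7% of all. After TGF-β1 they lay in KDM2B, CHD3, PRMT5, KDM5C, BRD9 and HDAC7, and in control in KAT5, KDM1A, KDM5B, KMT5A and CHD4.

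Related genes that the name rule did not take, subunits of complexes and other enzymes and readers, were read from 6 partner lists. Of their 158 names, 89 were listed. Together they had 172 positions after TGF-β1 and 161 in control, a ratio of 1.07 (0.857 to 1.33), against 1.46 over all genes. More positions were listed in 35 genes (39.3%) and fewer in 41 (46.1%), against 51.2% and 35.3% of all genes. Subunits of deacetylase complexes, together with sirtuins, had 66 positions after TGF-β1 and 40 in control. The ratio was 1.65 (1.10 to 2.51), and the 1.46 of all genes lay inside that interval. Of the 19 genes of this list, 12 had more (63.2%) and 6 fewer (31.6%). Within that list the methyl-CpG-binding domain genes MBD3 and MBD2, both of NuRD, had 10 and 8 and 6 and 1.

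The COMPASS list holds subunits that work with the KMT2 and SETD1 enzymes, and also KANSL2, KANSL3 and PSIP1, which are not core subunits. It had 17 positions after TGF-β1 and 21 in control, with 3 of its 11 listed genes having more and 7 fewer. For this and the lists below, the shares over all genes were 51.2% with more and 35.3% with fewer. CXXC1, which binds CpG islands, had 4 and 2, HCFC1 2 and 4, and PAGR1 5 and 1. Polycomb genes had 28 and 26, with 7 of 16 having more and 7 fewer. Among them the deubiquitinase BAP1 had 6 positions after TGF-β1 and 4 in control, and its cofactor ASXL1 2 and 6. Subunits of acetyltransferase complexes had 23 and 29, with 5 of 18 having more and 9 fewer, such as ING1 with 2 and 4, JADE2 with 2 and 3 and BRPF1 with 3 and 3. Other readers and remodellers had 24 and 36 (ratio 0.667, 0.380 to 1.15), with 4 of 18 having more and 11 fewer, among them BAZ1B with 2 and 6, SRCAP with 3 and 4 and CBX1 with 3 and 4. Other histone methyltransferases had 14 and 9, with 4 of 7 having more and 1 fewer, and PRMT2 had 4 and 2, PRMT7 2 and 2 and SMYD2 2 and 2. The intervals of other readers and remodellers and of the acetyltransferase complexes (0.438 to 1.42) lay below the 1.46 of all genes. The differences between lists were not tested.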

How the data were processed

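The authors deposited 1 table per group with, per the file headers, position, strand, base, gene, transcript and segment. Its mismatch difference is a fraction, deposited by the authors from 0.01 up, and was multiplied into percent here. The deposited p-value is the authors' own, with no word on adjustment. The build hg38 and the tools STAR 2.7.6a, fastp 0.23.1 and featureCounts are named, per the submitters' processing notes. For the caller, its filters and the pooling of libraries, the method is not given in the sources used here. Depth is unknown.

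Lines were merged to 1 per position and gene name (Python 3.11.15, pandas 2.3.3, scipy 1.17.1). Positions were shared when base and strand were the same. Genes with a shared position, with 4 or more listings, or with a value of 20% or more qualified for description with their values (24 of 53), as did the 3 genes with most listings per partner list. Some of these genes are not reported here. Members and lists were chosen with earlier results of these data known. Counts, the interval of the median and the binomial interval of a share were tested on simulated data. The simulated intervals rested on more positions than the shared positions and role groups of the set have, drawn as independent. Intervals of ratios were not tested in this way.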

Additional observations from a re-analysis of the deposited data

How the results depend on the processing

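No paired analysis was possible because the tables hold 1 value per group, and leaving out a library was not possible for the same reason. Depth limits every count, and so does the minimum of the lists. Splits by gene span and the set without BRD3OS were chosen after seeing the data. The ratio of listed positions (0.880) was 1.59 at 5% or more and 2.29 at 10% or more (1.75 and 2.17 over all genes). It was 1.19 with a p-value below 0.001 (1.77 over all genes). With the TGF-β1 table shortened to the control's length by smallest authors' p-value, and the control table uncut, it was 0.639 (1.00 over all genes). In genes of 50 kb or more it was 0.433, and in shorter ones 1.44 (0.928 and 1.82 over all genes). At 5% or more, 15 of 40 genes had fewer positions (37.5%, against 30.1% of all genes), and all 3 shared positions were higher. Ratios there were 4 (1.08 to 22.1) for demethylases, 3.67 (0.969 to 20.5) for deacetylases and 2.5 (1.05 to 6.56) for Polycomb. At 10% or more, 11 of 18 genes had more and 6 fewer, against 1545 and 640 of 2378 over all genes, and no position was shared. Ratios there rested on few positions, with 3 (0.241 to 157) for COMPASS and 7 (0.899 to 315) for Polycomb. They were 0.4 (0.0381 to 2.44) for acetyltransferase complexes and 3 (0.749 to 17.2) for other readers. With a p-value below 0.001 the bromodomain ratio was 2.4, and with the shortened table that of COMPASS was 0.333. Without CHD3, the gene with most listings, the CHD ratio was 0.25 (0.0733 to 0.686), against 1.45 over all genes. In genes of 50 kb or more, 5 genes had more, the 4 shared positions were all higher with a median difference of 3.27 points, and ratios were 0.2 for bromodomain genes, 0 for CHD genes and COMPASS and 0.375 for Polycomb. In shorter genes 8 of 24 had fewer (33.3%, against 26.7% of all genes). Ratios there were 1.75 (0.822 to 3.90) for CHD genes and 2.2 (0.9997 to 5.20) for Polycomb. The excess of positions after TGF-β1 minus control turned to 1 in KAT6A at 5% and at 10% or more, and to 1 in KAT5 with coding positions. The other 379 of 412 recomputed values stayed within their interval or within 1.5 times, or had neither and did not take the opposite sign. A change to or from 0 was counted among these. Examples are BRD2 (0 to -2) and HDAC6 (-3 to 0) at 5% or more, and SETD1A (2 to 0) with a p-value below 0.001. Fewer positions enter each selection, and the cause of the changes was not tested.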

Other observations

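Some positions of the 2 tables were neighbours without being the same base. In CHD3 a cytidine at chromosome 17 position 7905872 had 7.79% after TGF-β1, and 1 at 7905870 had 2.36% in control. In KDM3B the positions were 138379625 after TGF-β1 at 4.04% and 138379626 in control at 4.28%, and in EHMT1 they were 137752372 at 4.27% and 137752371 at 1.84%. Counting a position within 10 bases in the same gene as found again, 22 of 95 positions after TGF-β1 (23.2%, 15.1 to 32.9) and 23 of 108 in control (21.3%, 14.0 to 30.2) had a counterpart, against 21.9% and 30.1% over all genes. In genes listed in both tables, 24.6% of the set's control positions recurred at the same base (15.1 to 36.5), against 34.7% over all genes.

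An authors' p-value of exactly 0 was given at 8 positions of the set after TGF-β1 and at 8 in control. Those after TGF-β1 included positions in BRD3OS, CHD3, EHMT2, HDAC1, HDAC5, HDAC8 and SETD1A, and those in control lay in EP300, EZH1, HDAC3, HDAC6, KDM3B, KMT2B, NSD2 and NSD3. Of these positions the SETD1A one was in both tables.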
